A study of Mus musculus with 15 samples.

Results

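The 41 genes described here are mouse imprinted genes, chosen by symbol from the count table of sorted small intestinal epithelium, in which all 41 were found among 24594 rows. The table holds 6 bulk RNA-seq libraries of untreated C57Bl/6J mice, 3 of E16.5 fetal and 3 of adult cells, both from the proximal small intestine. Fetal cells were sorted as EpCAM+/DAPI-/CD31-/CD45-. Adult cells came from crypts of the first 20% of the small intestine, carry the label wild type, and were sorted as EpCAM+/DAPI-/Lin-/CD24mid by their cell type label. Their protocol text instead says that the DAPI-negative cells were excluded, and the labels do not settle which holds. DAPI is a dye that enters dead cells. EpCAM is a surface protein of epithelial cells, CD31 marks endothelium, CD45 marks white blood cells, and Lin- stands for cells without lineage markers. Age and sort gate changed together and cannot be told apart. The labels do not say that the libraries of a group came from separate animals or litters, or whether animals were pooled, so the p-values below measure the spread between these libraries. Organoid libraries of the same series were not analysed here, because their table carries no gene identifiers.

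Imprinted genes are expressed mainly from the allele of a single parent, which carries a different DNA methylation mark from the other allele since the egg or sperm. They lie in clusters, each with an imprinting control region, and many clusters hold a long noncoding RNA expressed from the opposite parental allele to the protein-coding genes beside it. Paternally expressed genes such as Igf2, Dlk1 and Peg3 are known for promoting fetal growth, maternally expressed ones such as Igf2r, Cdkn1c and Grb10 for restraining it, and many are known to be turned down in tissues after birth. The counts are per gene. They do not separate the parental alleles or the imprinted from the other isoforms, so they say nothing of whether imprinting itself was kept.

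Most of the imprinted genes that could be tested were higher in fetal cells, among them H19, Igf2, Cdkn1c and Grb10. Of the 41 genes, 36 had enough counts to be tested, and 26 of them were higher and 4 lower in fetal than in adult cells at an adjusted p under 0.05 (edgeR quasi-likelihood test, Benjamini-Hochberg over 13314 genes). Among all genes tested, 54.9% were called, 29.0% as higher and 25.9% as lower. All 26 were higher without overlap between the libraries of the groups, beside 28.5% of all genes. A difference over 8-fold was fitted for 17 of the 36, beside 6.36% of all genes. The median log2 difference, fetal minus adult, was 2.89 over the 36 genes and 0.01 over all genes tested. Setting the genes at 0 adult counts to their lower bounds could not move the median of 2.89, since these bounds lie above it too. These counts describe the set and do not test it: 14 of the 36 had fewer than 10 counts in every adult library, and so reached the test through the fetal libraries alone. Of the other 22, 12 were higher and 4 were lower. Igf2 is among these 12 with 15, 4 and 14 adult counts, and it too needed the fetal libraries to reach the test. The share of all genes above the same line of adult counts was not counted.

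The 5 genes not tested had few counts in either group. Sgce, a sarcoglycan, had 43 fetal and 0 adult counts, and was at least 9.31-fold higher. Dio3, which inactivates thyroid hormone, had 10 against 0, at least 2.16-fold higher. Mkrn3, a RING finger gene, had 32 against 3 and Asb4, an ankyrin repeat gene, 46 against 5. Magel2, a MAGE family gene, had 3 against 0 counts, too few for a fold. Where adult counts were 0, the bound takes 3 counts over the adult group in their place. Bounds and the counting intervals given below cover counting error only.

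**Figure D1:**
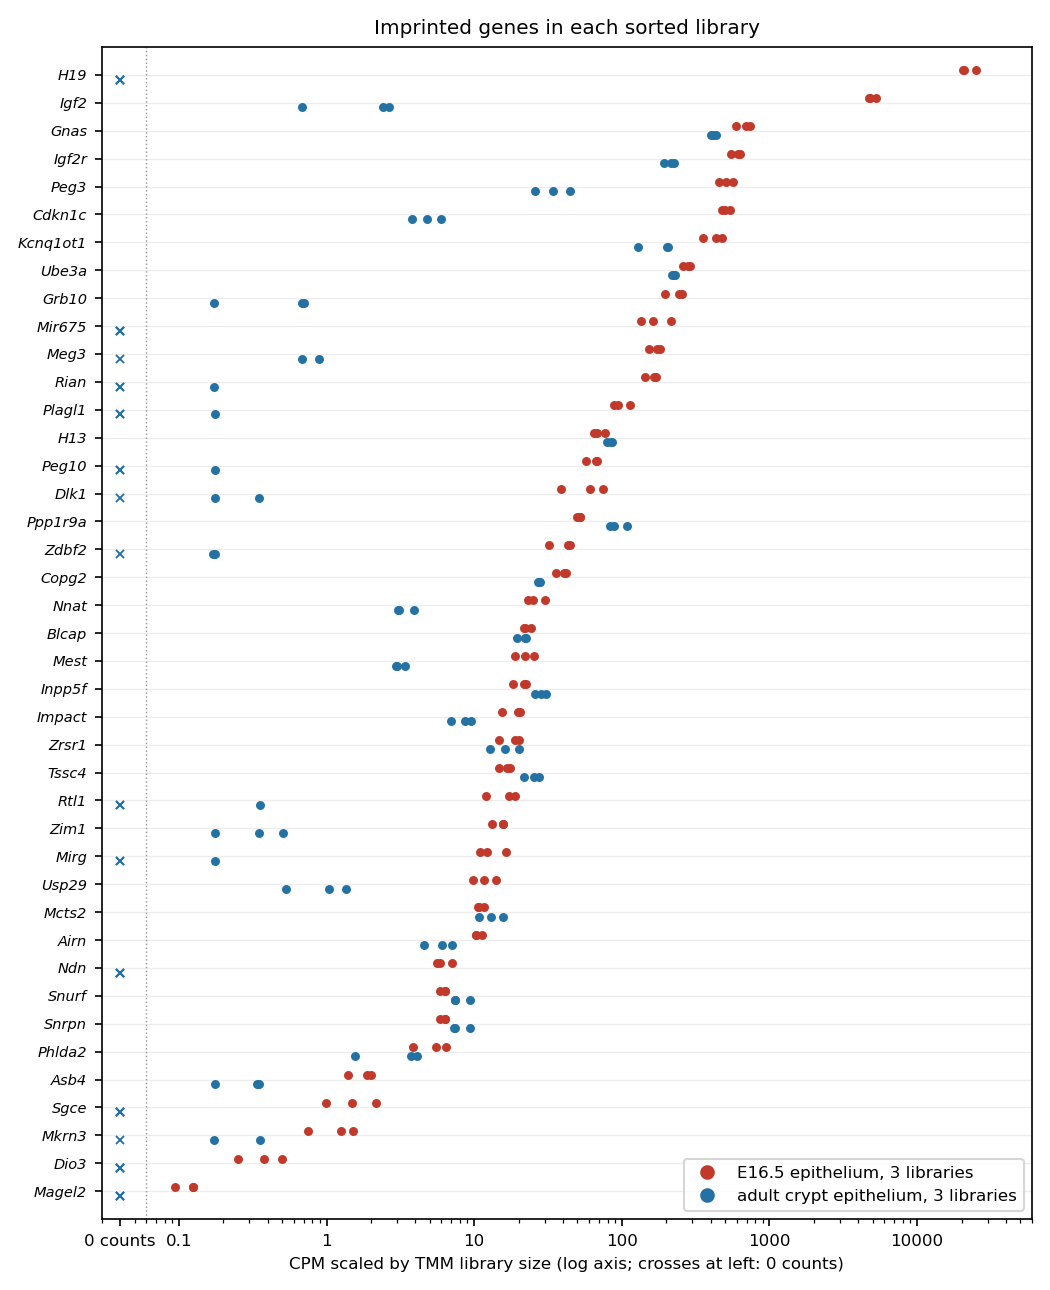
Level of each of the 41 imprinted genes in each of the 3 fetal (red) and 3 adult (blue) libraries, in CPM, the count relative to the library total scaled by TMM,, on a log axis, with 0 counts as crosses at the left. H19 and Igf2 lay farthest right in fetal cells, and 6 genes had 0 counts in all 3 adult libraries; CPM are not adjusted for gene length, so the order of the genes is not an order of transcript levels.

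The total counts of a library were 5795518 to 10538004. Levels are CPM, the count of a gene relative to the TMM-adjusted total of its library. The spread between the fetal libraries was small for most of these genes: the coefficient of variation over the 3 libraries ran from 3.12% for Ppp1r9a to 31.3% for Dlk1, with a median of 10.3% over the tested genes. Together the 41 genes took 2.94% to 3.53% of the counts of a fetal and 0.131% to 0.147% of those of an adult library. Without H19, Mir675 and Igf2 the fetal share was 0.395% to 0.453%. In bulk libraries, fewer cells of a type and less RNA per cell cannot be told apart.

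The sorted cells carried their epithelial markers in both groups, and the fetal libraries also held RNA of other cell types. The summed level of 8 epithelial markers was 5083 to 5209 CPM in fetal and 7378 to 7789 CPM in adult libraries. Of the 8, 6 were called lower in fetal cells and 0 higher, beside 25.9% lower and 29.0% higher of all genes tested. The summed level of 4 crypt stem cell markers, Lgr5, Olfm4, Smoc2 and Axin2, was 133 to 196 against 6986 to 9511 CPM. Mesenchymal markers summed to 166 to 232 against 11.9 to 19.6 CPM over 15 genes. Of these, 13 of 13 tested were higher, beside 29.0% of all genes tested. There were 0 adult counts for 6 of the 15, such as Sparc and Lum. Markers with 0 adult counts, here and below, could reach the test only through the fetal libraries and could only be called higher. The 8 markers of exocrine pancreas summed to 694, 1515 and 678 CPM in fetal replicates 1, 2 and 3 and to 0.691 to 2.21 CPM in adult libraries, with Ptf1a and Amy2a5 at 0 adult counts. The 4 mesothelial markers summed to 33.0 to 39.7 against 0.170 to 0.354 CPM, with Wt1 and Msln at 0 adult counts. The 7 neuronal and glial markers summed to 48.0 to 68.7 against 5.01 to 6.11 CPM. The 4 erythroid markers found in the table summed to 31.6 to 55.6 against 0.509 to 1.38 CPM, with Hbb-bt and Hba-a1 at 0 adult counts. The 6 gastric markers summed to 3.12, 3.24 and 39.6 CPM in fetal replicates 1, 2 and 3 and to 0 to 0.173 CPM in adult libraries, with 5 of the 6 at 0 adult counts, and fetal replicate 3 stood apart. The 6 enteroendocrine markers summed to 1933 to 2665 against 1809 to 2187 CPM, with 5 higher and 1 lower. Immune markers summed to 20.8 to 22.3 against 20.5 to 23.7 CPM, and endothelial markers to 2.12 to 8.61 against 5.30 to 7.63 CPM. The endothelial sum joins genes of unlike pattern. Esam was called lower, at 0.603 against 4.89 CPM, and Pecam1 was at 1.23 against 1.21 CPM. Cdh5, Kdr, Flt1 and Tek, not tested, had 35, 14, 12 and 11 fetal counts against 0, 0, 0 and 1 adult counts. The Y-linked genes Ddx3y, Eif2s3y, Kdm5d and Uty had 2247 fetal and 0 adult counts, so the sex composition differed too. The part of these cell types and of sex in the levels of imprinted genes was not tested.

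**Figure D2:**
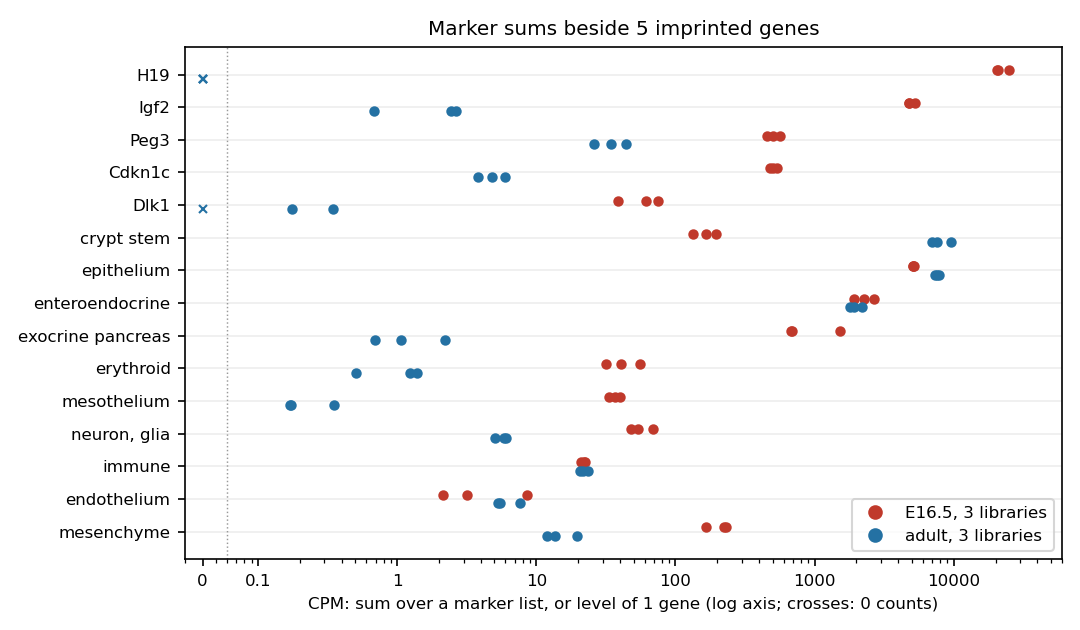
Summed CPM of 10 marker lists and the CPM of 5 imprinted genes, on a log axis, in the 3 fetal (red) and 3 adult (blue) libraries; crosses are 0 counts. The mesenchymal sum was 166 to 232 CPM in fetal and 11.9 to 19.6 CPM in adult libraries, and the pancreatic sum was highest in fetal replicate 2.

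The growth factor gene and the noncoding RNA of the Igf2-H19 cluster were the members with the most fetal counts. Igf2 encodes a fetal insulin-like growth factor from the paternal allele, and H19 is a noncoding RNA of the maternal allele. H19 (chr7:142575530-142578146, mm10) was at 20836, 24899.6 and 20308 CPM in the fetal libraries, in the order of their replicate numbers, and had 0 counts in each adult library. That was 2.06% to 2.52% of all fetal counts, and at least 126237-fold higher (edgeR adjusted p = 1.05e-11). Igf2 (chr7:142650768-142666816) stood at 4775, 5258 and 4732 CPM in fetal and at 2.65, 0.679 and 2.42 CPM in adult libraries, from 33 adult counts in all. Its log2 difference was 11.32 ± 0.23 (SE, edgeR adjusted p = 3.22e-12). The fetal libraries lay close together for both genes, and replicate 2 was the highest for each. H19 had 4.29 to 4.74 counts for every Igf2 count in the fetal libraries. Per kb of exon, the level of H19 was 8949 and that of Igf2 860.0 CPM in fetal cells, the 2 highest of the protein-coding and long noncoding members, ahead of Cdkn1c at 248, Igf2r at 64.0 and Gnas at 60.3.

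Mir675 is a microRNA hairpin of 84 bases that lies wholly inside H19 (chr7:142577064-142577147). Its row was at 164, 217 and 136 CPM in the fetal libraries and at 0 counts in the adult ones, at least 973-fold higher (edgeR adjusted p = 1.77e-09). These are reads of bulk RNA-seq libraries over the hairpin. They cannot be told apart from reads of H19 itself, and do not measure the mature microRNA. The mature sequences that this hairpin encodes are shown for the seed by which each would pair with its targets (bases 2 to 8, in capitals), from RefSeq on GRCm38.p6, the build also called mm10.
mmu-miR-675-5p: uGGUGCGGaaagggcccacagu
mmu-miR-675-3p: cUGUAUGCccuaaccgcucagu
The seeds of the 5p and 3p arms differ.

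Igf2r, whose product binds IGF2 and delivers it to lysosomes, was also higher in fetal cells. It stood at 609, 635 and 545 CPM in fetal and at 194, 225 and 215 CPM in adult libraries, a log2 difference of 1.50 ± 0.09 (edgeR adjusted p = 2.65e-08). Airn, the paternally expressed noncoding RNA known to silence Igf2r on the same chromosome, was at 11.4, 10.2 and 10.2 against 6.01, 4.58 and 7.09 CPM, higher by 0.84 ± 0.21 on the log2 scale (adjusted p = 0.00456). The groups overlapped for neither gene, so receptor and silencer were both higher in fetal cells. The spans of these genes share 28396 bases on opposite strands. The strand setting of the counting is not given in the sources used here, and reads of such antisense pairs could not be told apart. The same holds for Kcnq1ot1 and Kcnq1, Igf2 and Igf2os, Gnas and Gnasas1, Mest and Copg2, and Nnat and Blcap, among others. Ube3a and Snhg14, and Zrsr1 and Commd1, are further such pairs. The limit also holds for Rtl1 and the RNAs that overlap it.

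Among the growth inhibitors, Cdkn1c and Grb10 were high in fetal cells and at few counts in adult crypts. Cdkn1c (chr7:143458339-143461059), a cyclin-dependent kinase inhibitor of the maternal allele, was at 476, 539.8 and 502 CPM in fetal and at 4.77, 5.94 and 3.80 CPM in adult libraries. The log2 difference was 6.70 ± 0.14 (edgeR adjusted p = 3.22e-12), and the 3 fetal libraries differed by little. Grb10 (chr11:11930499-12037428), an adaptor that dampens signalling from insulin and IGF receptors, was at 257, 243 and 197 against 0.707, 0.679 and 0.173 CPM, with 9 adult counts in all. It was higher by 8.76 ± 0.22 (adjusted p = 1.23e-11). Of the other genes of the cluster of Cdkn1c, Kcnq1ot1, the noncoding RNA of its paternal allele, was at 432, 476 and 352 against 205, 129 and 203 CPM. Kcnq1ot1 was higher by 1.23 ± 0.16 (adjusted p = 2.56e-05). Phlda2, known for limiting placental growth, ranged from 3.84 to 6.49 against 1.56 to 4.07 CPM. Its groups overlapped, and its difference of 0.74 ± 0.35 was not called (adjusted p = 0.0916). Tssc4 was lower, and is given with the other genes of that direction below.

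All 5 tested genes of the Dlk1-Dio3 cluster were higher in fetal cells, and none had more than 9 adult counts. With so few, all 5 reached the test through the fetal libraries alone, so their number describes the cluster and does not test it. The cluster holds 3 paternally expressed protein-coding genes, Dlk1, Rtl1 and Dio3, and a run of maternally expressed noncoding RNAs, Meg3, Rian and Mirg, with many microRNAs and snoRNAs inside or beside them. Dlk1 (chr12:109452485-109463336), a transmembrane protein of the Notch ligand family, was at 61.0, 75.0 and 38.8 CPM in fetal libraries and had 1, 0 and 2 adult counts. The ratio was 325 (95% counting interval 111 to 1580.0; adjusted p = 1.01e-08). Dlk1 varied most among the fetal libraries of all tested members. It was highest in replicate 2, as was the exocrine pancreatic sum, and lowest in replicate 3, as was the insulin gene Ins2 at 71.8, 74.2 and 43.7 CPM. The part of pancreatic RNA in the Dlk1 level was not tested. Without fetal replicate 2, the fitted log2 difference was 8.03 in place of 8.25. Rtl1, a gene derived from a retrotransposon, was at 12.1, 17.1 and 18.8 CPM with 2 adult counts, a ratio of 141 (38.9 to 1169.6; adjusted p = 1.36e-07).

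The noncoding RNAs of the same cluster were at like levels in the 3 fetal libraries. Meg3 (chr12:109540996-109571729) was at 152, 172 and 182 against 0.884, 0.679 and 0 CPM, a log2 difference of 8.30 ± 0.25 (edgeR adjusted p = 4.19e-11). Rian was at 143, 166 and 169 CPM with 1 adult count, a ratio of 2782 (499 to 109926; adjusted p = 9.66e-12). Meg3 had 1.03 to 1.08 counts for every Rian count in the fetal libraries, a nearly fixed ratio. Mirg was at 11.0, 12.2 and 16.4 CPM with 1 adult count, a ratio of 234 (41.8 to 9282; adjusted p = 1.00e-07). Per kb of exon the fetal levels were 10.3 CPM for Dlk1, 9.32 for Meg3, 8.75 for Rian, 2.52 for Rtl1 and 1.81 for Mirg. Where so few adult counts stand in 1 library, leaving it out moves the fitted value, which then depends on the prior count. Without adult replicate 3 the fitted log2 difference of Rian was 13.26 in place of 11.06 and that of Dlk1 9.14. Without adult replicate 1 that of Mirg was 9.67 in place of 7.48 and that of Rtl1 9.95 in place of 6.92.

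Small RNA rows within the span from Dlk1 to Dio3 had counts in fetal libraries and none in adult ones. Of 61 microRNA rows, 31 had fetal and 0 had adult counts, and 30 were at 0 throughout, with 408 fetal counts in all. Only 2 of them could be tested, and both were higher. With 0 adult counts, a row of this span could reach the test only through the fetal libraries, and could only be called higher. Mir1906-1, inside Meg3, was at 5.74, 8.23 and 11.2 CPM, at least 50.0-fold higher (edgeR adjusted p = 4.42e-06). Mir3072, inside Mirg, was at 2.12, 1.87 and 3.66 CPM, at least 15.4-fold higher (adjusted p = 0.000129). The snoRNA rows DQ267101 and AF357425 inside Rian, which were picked out after their values were seen, were also higher. DQ267101 was at 69.5, 82.9 and 79.4 CPM with 0 adult counts, at least 448-fold higher, and AF357425 at 15.1, 20.5 and 16.2 CPM, at least 99.1-fold higher. Per kb of the row, the fetal mean was 1058 CPM for DQ267101 and 236 CPM for AF357425, beside 8.75 CPM per kb for Rian. Reads over such short rows can come from the long host RNAs as well as from the small RNAs, and reads that only overlap them can count in full, so a level per kb is not comparable with that of a long gene. In the span from Snrpn to Ube3a, 1 of 5 small RNA rows had counts. It was Snord64, a snoRNA, at 7.36, 5.61 and 9.09 CPM in fetal and 5.13, 6.96 and 3.98 CPM in adult libraries. Its log2 difference of 0.47 ± 0.27 was not called (edgeR adjusted p = 0.163). The mature microRNAs of the 2 tested hairpins are shown with the seed in capitals, since they differ in seed from each other and from both arms of miR-675 above.
mmu-miR-1906: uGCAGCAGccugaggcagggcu
mmu-miR-3072-5p: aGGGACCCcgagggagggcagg
mmu-miR-3072-3p: uGCCCCCUccaggaagccuucu
No 2 of these 5 mature sequences share a seed.

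The 3 genes of the Peg3 cluster were all higher, and kept a low level in adult crypts. Peg3 (chr7:6703892-6730462), a paternally expressed zinc finger gene, was at 505, 567 and 454 CPM in fetal and at 44.4, 25.8 and 34.2 CPM in adult libraries, a log2 difference of 3.87 ± 0.16 (edgeR adjusted p = 6.47e-10). Usp29, a ubiquitin-specific peptidase gene read in the opposite direction from nearly the same start, was at 11.6, 14.1 and 9.75 against 0.530, 1.36 and 1.04 CPM, higher by 3.56 ± 0.33 (adjusted p = 1.06e-06). The differences of Peg3 and Usp29 lay within 1 SE of Usp29 of each other, and replicate 2 was the highest fetal library for both. Zim1, a zinc finger gene of the maternal allele, was at 15.7, 15.6 and 13.2 against 0.177, 0.509 and 0.346 CPM, higher by 5.35 ± 0.34 (adjusted p = 3.03e-08). Usp29 and Zim1, with fewer than 10 counts in every adult library, reached the test through the fetal libraries alone.

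Further paternally expressed genes with at most 2 adult counts each were Plagl1, Peg10, Zdbf2 and Ndn. Plagl1 (chr10:13090832-13131694), a zinc finger transcription factor, was at 88.3, 94.8 and 113 CPM with 1 adult count, a ratio of 1735 (311 to 68540.2; edgeR adjusted p = 4.17e-11). Peg10, a gene derived from a retrotransposon, was at 68.1, 66.8 and 57.6 CPM with 1 adult count, a ratio of 1101 (197 to 43514; adjusted p = 8.57e-11). Zdbf2, a zinc finger gene, was at 43.3, 44.6 and 31.9 CPM with 2 adult counts, a ratio of 339 (93.7 to 2805; adjusted p = 1.36e-09). No adult library reached the lowest fetal level of any of these genes. Ndn, a MAGE family gene, was at 5.61, 7.11 and 5.91 CPM with 0 adult counts, at least 35.7-fold higher (adjusted p = 2.90e-06). The single adult count of Plagl1 and of Peg10 stood in adult replicate 1. Without it the fitted log2 differences were 12.57 in place of 10.37 and 11.94 in place of 9.74.

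Nnat, Mest and Impact differed by 2-fold to 8-fold, and Gnas, Copg2 and Ube3a by less. Nnat, a small membrane protein of the endoplasmic reticulum, was at 30.2, 25.2 and 23.1 against 3.89, 3.05 and 3.11 CPM, a log2 difference of 2.96 ± 0.20 (edgeR adjusted p = 5.58e-08). Mest, an enzyme of the hydrolase fold, was at 22.2, 25.4 and 18.8 against 3.01, 3.39 and 2.94 CPM, higher by 2.82 ± 0.21 (adjusted p = 1.28e-07). Impact was at 19.8, 15.3 and 20.3 against 9.55, 8.65 and 6.91 CPM, higher by 1.15 ± 0.19 (adjusted p = 0.000186). Each of these was higher in all 3 fetal than in all 3 adult libraries. Gnas, which encodes the stimulatory G protein subunit and several imprinted transcripts, was at 733, 692 and 597 against 412, 401 and 431 CPM, higher by 0.70 ± 0.09 (adjusted p = 3.18e-05). Copg2, a coat protein of transport vesicles, was at 35.8, 40.7 and 41.8 against 27.6, 28.0 and 27.0 CPM, higher by 0.52 ± 0.11 (adjusted p = 0.00146). Ube3a, a ubiquitin ligase that is imprinted in neurons, was at 288, 279 and 259 against 230.0, 218 and 225 CPM, higher by 0.29 ± 0.08 (adjusted p = 0.00676). The groups did not overlap for these genes either, but the differences were small.

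There were 4 members that were lower in fetal cells, all by less than 2-fold. Ppp1r9a, an actin-binding scaffold, was at 52.4, 49.4 and 51.8 CPM in fetal and at 87.9, 82.8 and 109 CPM in adult libraries, a log2 difference of -0.86 ± 0.11 (edgeR adjusted p = 2.00e-05). Tssc4 was at 17.5, 16.7 and 14.6 against 25.3, 27.3 and 21.8 CPM, a difference of -0.61 ± 0.14 (adjusted p = 0.0028). Inpp5f, an inositol phosphatase, was at 21.7, 18.3 and 22.3 against 28.5, 25.6 and 30.6 CPM, a difference of -0.44 ± 0.13 (adjusted p = 0.0133). H13, the signal peptide peptidase, was at 67.4, 76.3 and 65.2 against 79.2, 86.4 and 84.4 CPM, a difference of -0.26 ± 0.09 (adjusted p = 0.03). The libraries of the groups did not overlap for any of the 4, a pattern seen in 25.1% of all genes tested, but the calls of Inpp5f and H13 were not firm. Inpp5f was no longer called without fetal replicate 2 (adjusted p = 0.0668) or adult replicate 3 (0.0506). H13 was not called by DESeq2 (adjusted p = 0.0748), with library size only (0.0715), or without fetal replicate 1 or 3 or adult replicate 2 or 3 (0.0648 to 0.115).

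There were 6 tested members that were not called. Snrpn and Snurf share a transcript and nearly all of their reads, so they are not independent, though each is counted as a gene here: Snrpn was at 5.86 to 6.37 against 7.30 to 9.37 CPM, a log2 difference of -0.37 ± 0.21 (edgeR adjusted p = 0.157), and Snurf differed by -0.38 ± 0.21. Mcts2, a retrogene in an intron of H13, was at 10.6 to 11.7 against 10.7 to 15.6 CPM, with a difference of -0.25 ± 0.18. Zrsr1, a retrogene in an intron of Commd1, was at 14.7 to 20.2 against 12.7 to 20.2 CPM, with a difference of 0.15 ± 0.19. Blcap, the host gene of Nnat, was at 21.7 to 24.1 against 19.5 to 22.3 CPM, with a difference of 0.08 ± 0.13. Phlda2 is given above. The standard errors of up to 0.35 leave room for small differences, and the values do not show that the levels were equal. Snrpn and Snurf did not overlap between the groups, and the other 4 genes did.

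The members were also counted by the allele known to be expressed, with those whose imprinting is limited to isoforms or certain tissues kept apart. This grouping was made with these results known, differences between its groups were not tested, and 29.0% of all genes tested were higher and 25.9% lower. Of 10 maternally expressed genes, all tested, 9 were higher and 0 lower. Of 22 paternally expressed genes, 18 were tested, 14 were higher and 0 lower. Of the 9 genes with limited imprinting, 8 were tested, with 3 higher and 4 lower, and all 4 of the lower members were among them. The 14 tested members with fewer than 10 counts in every adult library are all maternally or paternally expressed genes. None of the 14 is among the genes with limited imprinting. Since they reached the test through the fetal libraries, they could only be called higher, so the filter bears on these counts.

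**Figure D3:**
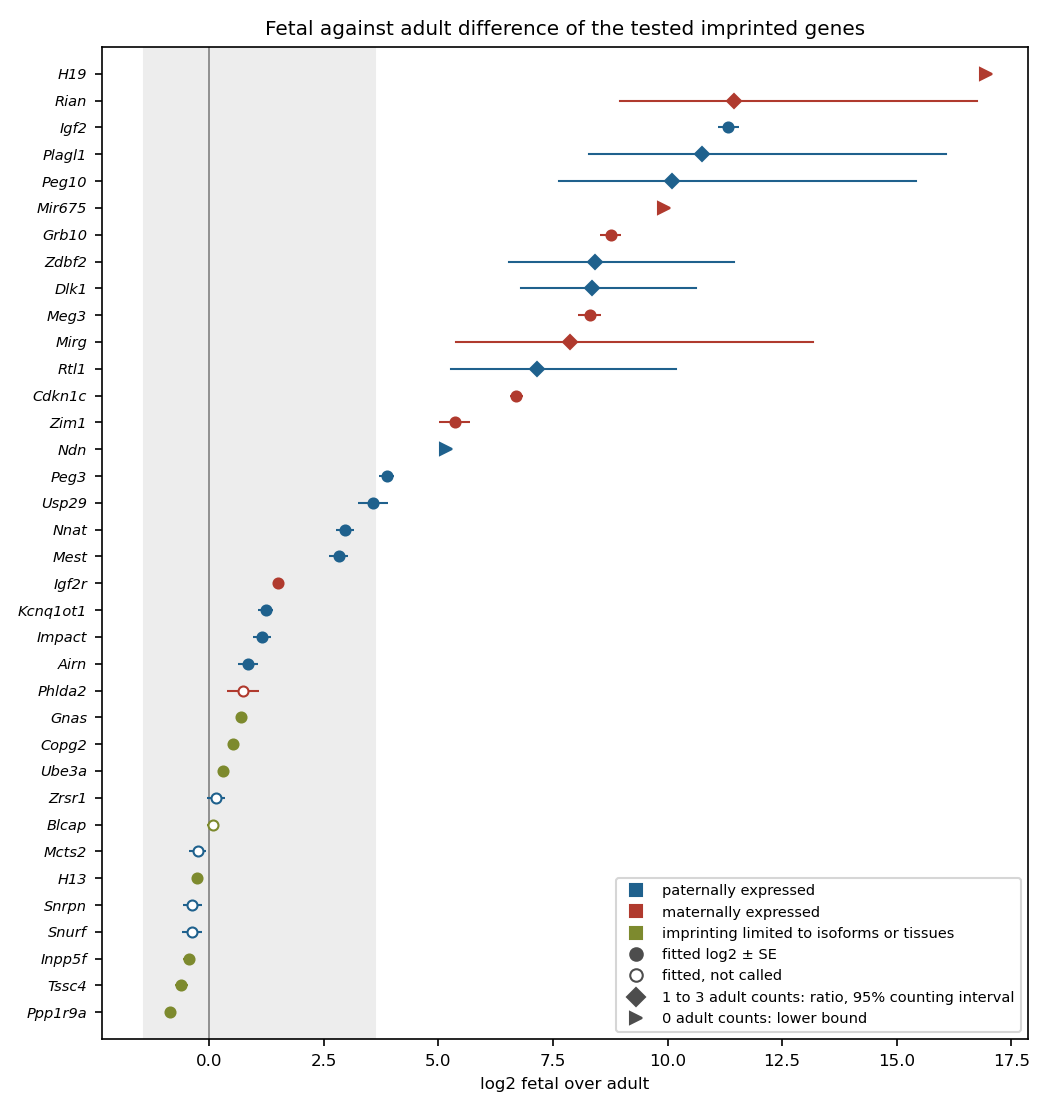
Log2 fetal over adult difference of each of the 36 tested imprinted genes, coloured by the allele known to be expressed: circles are fitted values ± SE (open if not called), diamonds are ratios with 95% counting intervals for 1 to 3 adult counts, and triangles are lower bounds for 0 adult counts. The grey band spans the 5th to 95th percentile of all genes tested, -1.43 to 3.61, and 16 of the members lie to its right.

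Several members share a locus with a gene of another expression pattern, which allows a comparison within each library that no scaling of libraries can move. Nnat lies in an intron of Blcap, and had 1.06 to 1.25 counts for every Blcap count in fetal but 0.138 to 0.175 in adult libraries. Mest had 0.451 to 0.626 counts for every count of its neighbour Copg2 in fetal and 0.109 to 0.121 in adult libraries. Kcnq1ot1 had 19.8 to 24.5 counts for every count of Kcnq1, the potassium channel gene it is antisense to, in fetal and 0.741 to 1.04 in adult libraries. The genes of each of these 3 pairs lie on opposite strands, and reads where they overlap could not be told apart. The 3 ratios did not overlap between the groups. By contrast, the retrogenes and their hosts had overlapping ratios, at 0.141 to 0.180 against 0.127 to 0.181 for Mcts2 over H13 and 0.254 to 0.439 against 0.198 to 0.367 for Zrsr1 over Commd1. The ratio of Igf2r to Airn was 53.4 to 62.0 in fetal and 30.3 to 49.1 in adult libraries, and that of Peg3 to Usp29 40.2 to 46.6 against 19 to 83.7. The spans of Zrsr1 and Commd1 and of Igf2r and Airn also overlap, and the same limit on reads holds for their ratios.

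**Figure D4:**
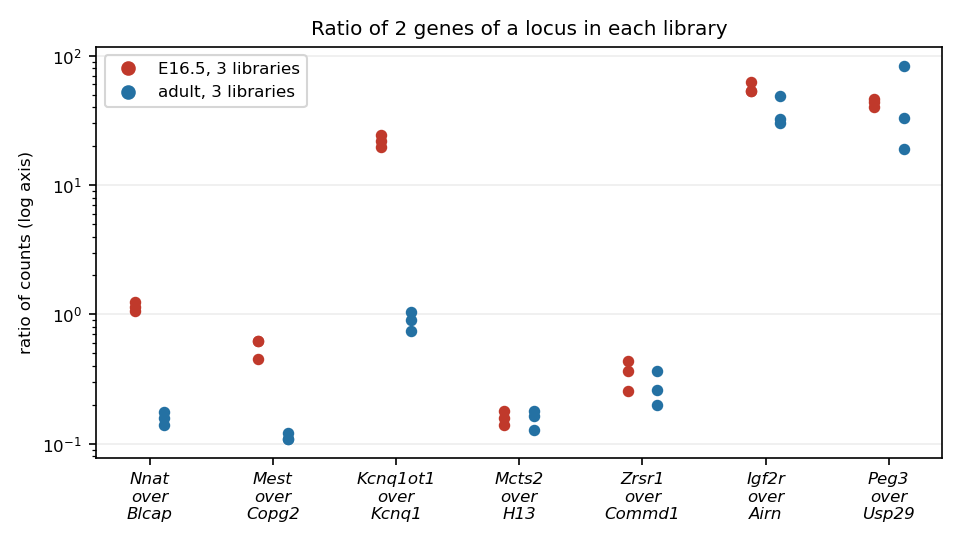
Ratio of the counts of neighbouring or overlapping genes in each fetal (red) and adult (blue) library, on a log axis, not adjusted for gene length. The ratios of Nnat to Blcap, Mest to Copg2, Kcnq1ot1 to Kcnq1 and Igf2r to Airn do not overlap between the groups, and the other 3 do.

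Genes around the imprinted clusters were called in each direction at shares near those of all genes. Of 131 genes within 250 kb of a member whose symbols are in neither list of imprinted genes, 59 were tested. Of these, 19 were higher, 14 lower and 26 not called, beside 29.0% higher and 25.9% lower of all genes tested. Their median log2 difference was 0.02. Matching was by symbol, so Gnasas1, listed as imprinted under its other name Nespas, was counted here. The 131 include RNAs whose spans overlap a member, such as Igf2os, Gnasas1 and Snhg14. They are therefore not all genes outside the imprinted loci. In the flanks of the Igf2-H19 cluster all 5 tested genes were higher. Igf2os, antisense to Igf2, was at 306 ± 17.7 (SD, n = 3) against 0.466 ± 0.372 CPM, with 8 adult counts. Syt8, a synaptotagmin, was at 12.9 ± 4.33 against 0.291 ± 0.265 CPM, and Ctsd, a lysosomal protease 188 kb from H19, was higher by 0.91 ± 0.09 (edgeR adjusted p = 2.62e-06). Prr33 had 197 against 1 counts and Tnni2 53 against 0. Of these 5, all but Ctsd reached the test through the fetal libraries alone. Gnasas1, antisense within the Gnas locus, was at 14.7 ± 1.45 against 0.234 ± 0.270 CPM, higher by 5.89 ± 0.42 (adjusted p = 1.01e-07), whereas Gnas itself was higher by 0.70. Cobl, beside Grb10, went the other way, at -2.27 ± 0.11 (adjusted p = 2.86e-09). Cpa1 beside Mest, at 251 ± 126 CPM in fetal libraries, is a gene of the exocrine pancreas, and Col1a2 beside Sgce, at 13.6 ± 1.73 CPM, is a mesenchymal collagen.

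**Figure D5:**
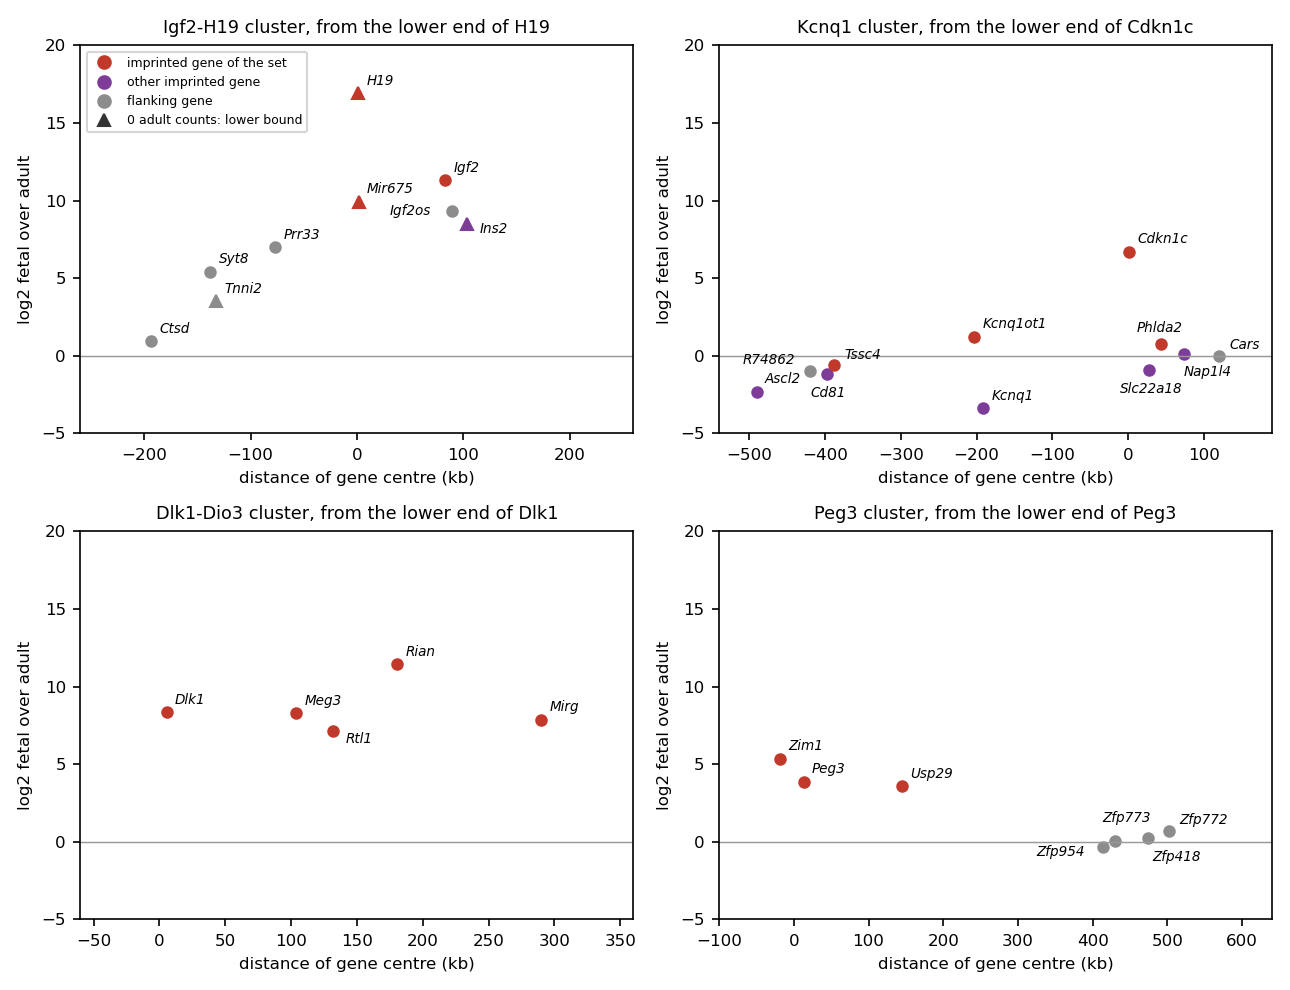
Log2 fetal over adult difference of the tested genes of 4 clusters against the distance of each gene's centre, in kb, from the lower coordinate of a reference gene; red points are members, purple points other imprinted genes and grey points flanking genes, and triangles are lower bounds for 0 adult counts. In the Kcnq1 cluster Cdkn1c stood at 6.70 while Kcnq1 stood at -3.38, and of the zinc finger genes beside the Peg3 cluster Zfp772 was called as higher, at 0.70.

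Imprinted genes outside the set went in both directions. Of 45 listed, 42 were found in the table by symbol and 28 were tested. Of these, 12 were higher, 7 lower and 9 not called, beside 29.0% higher and 25.9% lower of all genes tested. Their median log2 difference was 0.14. Gnasas1, listed as Nespas, was counted with the flanking genes instead. The clearest opposite change lay within the cluster of Cdkn1c. Kcnq1 was at 21.8, 21.7 and 14.3 CPM in fetal and at 197, 175 and 226 CPM in adult libraries, a log2 difference of -3.38 ± 0.15 (edgeR adjusted p = 1.41e-09). Cd81, a tetraspanin of the same cluster, was at 68.4 ± 4.22 against 153 ± 7.80 CPM (SD, n = 3), a difference of -1.17 ± 0.09 (adjusted p = 1.38e-07). Ins2, an insulin gene next to Igf2, was at 71.8, 74.2 and 43.7 CPM with 0 adult counts, at least 354-fold higher (adjusted p = 2.92e-08). Smoc1, a matrix protein, was higher by 4.66 ± 0.39 (adjusted p = 5.06e-07), from 12, 4 and 1 adult counts. Ago2, the microRNA effector, was higher by 0.91 ± 0.08 (adjusted p = 7.67e-07), and Ampd3, an AMP deaminase, was lower at -1.69 ± 0.17 (adjusted p = 2.73e-06).

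The other genes of the IGF pathway were mostly higher in fetal cells, apart from the receptor Igf1r and the binding protein Igfbp4. Of 23 listed, 18 were tested, with 13 higher, 2 lower and 3 not called, beside 29.0% higher and 25.9% lower of all genes tested. The median log2 difference was 2.05. There were 0 adult counts for 7 of the 23. Genes with few adult counts, among them Igf1, Igf2bp1, Igfbp5 and Irs4, reached the test through the fetal libraries alone. They could only be called higher, so these numbers describe the list and do not test it. Igf1, the other IGF ligand, was at 23.5, 36.5 and 24.0 CPM with 0 adult counts, at least 159-fold higher (edgeR adjusted p = 8.73e-08). The Igf2 mRNA-binding proteins were higher throughout. Igf2bp1 was at 266, 253 and 223 against 0.177, 0 and 0.519 CPM, a log2 difference of 9.96 ± 0.24 (adjusted p = 9.66e-12), or 11.23 without adult replicate 3. Igf2bp3 was higher by 5.96 ± 0.17 (adjusted p = 3.01e-11) and Igf2bp2 by 1.21 ± 0.09 (adjusted p = 9.52e-08). Igfbp5, a secreted IGF-binding protein, was at 65.5 ± 23.5 against 0.399 ± 0.355 CPM (SD, n = 3), and Irs4, a receptor substrate, was at 13.4 ± 2.05 CPM with 1 adult count.

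Of the receptors, Igf1r was lower and Insr was not called. Igf1r, which transmits the growth signal of both IGF ligands, was at 75.1, 65.8 and 59.3 CPM in fetal and at 90.3, 88.1 and 105 CPM in adult libraries. The log2 difference was -0.50 ± 0.11 (edgeR adjusted p = 0.00149). Insr, the insulin receptor, was at 122, 135 and 139.8 against 104, 105 and 131 CPM, with overlapping groups and a difference of 0.23 ± 0.10 that was not called (adjusted p = 0.0775). Insr was called as higher with library size only (adjusted p = 0.0446), without fetal replicate 1 (0.0481) and without adult replicate 3 (0.00789).

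Genes that set or maintain imprints moved in both directions. Of 18 listed, 15 were tested, with 5 higher, 6 lower and 4 not called, beside 29.0% higher and 25.9% lower of all genes tested, and a median log2 difference of -0.01. Dnmt3a, a de novo DNA methyltransferase, was at 331 ± 19.3 against 132 ± 10.1 CPM (SD, n = 3), higher by 1.32 ± 0.09 (edgeR adjusted p = 4.99e-08). Dnmt1, which copies methylation at replication, was at 154 ± 26.5 against 293 ± 25.5 CPM, a log2 difference of -0.92 ± 0.12 (adjusted p = 2.04e-05). Of the demethylating dioxygenases, Tet2 was higher by 0.81 ± 0.11 (adjusted p = 3.57e-05) and Tet1 by 1.11 ± 0.19 (adjusted p = 0.000227). Ctcf, the insulator protein that binds the Igf2-H19 control region, was lower at -0.36 ± 0.08 (adjusted p = 0.00185). Zfp57, the zinc finger protein that holds methylation at imprints, was low in both groups, at 2.99, 1.62 and 2.34 CPM with 2 adult counts, a ratio of 20.1 (5.34 to 169.9; adjusted p = 0.000167).

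Promoter sequence was examined for the hexamer TGCCGC, the sequence that ZFP57 is known to bind when it is methylated, read on both strands as TGCCGC or GCGGCA. RefSeq windows of 300 bases, from 250 before to 50 after an annotated start on GRCm38.p6, were at hand for 34 of the 41 members. The hexamer was found in at least 1 window of 12 of the 34 (35.3%), beside 13.1% of 27025 genes. By window it was in 13 of 50 (26.0%), beside 11.6% of all 32851 windows. These 13 are not all separate sequences. The Mest windows on chr6:30737800-30738099 and chr6:30737803-30738102 overlap and hold the same 2 matches. The 12 were Copg2, Grb10, Igf2, Mcts2, Meg3, Mest, Nnat, Plagl1, Snrpn, Snurf, Zdbf2 and Zim1, of which Snrpn and Snurf share a window. A match describes these letters in these windows and does not show binding. The members without an entry were Cdkn1c, H19, Sgce, Peg10, Impact, Mir675 and Rtl1. Promoters of 4 of the paternally expressed genes that were higher in fetal cells are shown, 3 with matches and 1 without, with the hexamer in capitals. That of Mest is on chr6:30737800-30738099 (plus strand, 2 matches), that of Plagl1 on chr10:13090582-13090881 (plus, 1 match) and that of Zdbf2 on chr1:63200108-63200407 (plus, 3 matches). That of Peg3 on chr7:6730370-6730669 (minus strand, 0 matches) shares 263 bases with the window of Usp29, whose start lies 164 bases away on the other strand. Mest and Zdbf2 have further windows, and those shown were picked because they held matches. The windows of Mest on chr6:30733256-30733555 and of Zdbf2 on chr1:63273019-63273318 had 0 matches.
Mest: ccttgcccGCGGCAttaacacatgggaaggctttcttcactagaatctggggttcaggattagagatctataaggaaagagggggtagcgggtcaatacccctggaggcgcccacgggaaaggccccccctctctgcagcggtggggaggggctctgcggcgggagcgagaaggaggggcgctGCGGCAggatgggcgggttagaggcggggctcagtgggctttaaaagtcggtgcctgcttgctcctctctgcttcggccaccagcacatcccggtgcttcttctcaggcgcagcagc
Plagl1: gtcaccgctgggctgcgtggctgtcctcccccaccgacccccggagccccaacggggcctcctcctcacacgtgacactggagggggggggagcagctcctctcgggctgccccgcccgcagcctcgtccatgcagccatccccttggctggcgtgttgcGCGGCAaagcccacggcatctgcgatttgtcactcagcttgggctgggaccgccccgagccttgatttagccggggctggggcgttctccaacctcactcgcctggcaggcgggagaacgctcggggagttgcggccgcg
Zdbf2: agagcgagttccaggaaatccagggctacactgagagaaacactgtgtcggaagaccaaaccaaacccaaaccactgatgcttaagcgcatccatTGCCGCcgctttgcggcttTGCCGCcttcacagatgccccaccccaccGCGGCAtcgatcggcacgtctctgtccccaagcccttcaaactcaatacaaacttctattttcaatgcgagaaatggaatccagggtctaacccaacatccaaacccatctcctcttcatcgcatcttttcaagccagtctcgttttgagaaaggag
Peg3: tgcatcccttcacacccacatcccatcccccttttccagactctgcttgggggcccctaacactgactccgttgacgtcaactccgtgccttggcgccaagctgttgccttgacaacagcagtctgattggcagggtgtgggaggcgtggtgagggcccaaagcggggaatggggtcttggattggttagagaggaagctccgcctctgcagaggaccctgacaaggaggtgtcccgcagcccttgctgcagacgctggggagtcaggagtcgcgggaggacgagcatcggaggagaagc
Every match in these windows lies before the annotated start.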

How the data were processed

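RNA was measured by bulk sequencing in 6 libraries of sorted proximal small intestinal epithelium, 3 fetal and 3 adult, grouped by the sample titles. The authors deposited raw counts per gene: the values are whole numbers with differing totals. Build mm10 and edgeR are named for these libraries in the submitters' processing notes. Aligner, annotation, filters and strand setting were not given in the sources used here. A SMARTer stranded total RNA kit for picogram input was used for the adult libraries, per the labels' protocols, whereas the fetal kit has no such entry. Total counts were 5795518 to 10538004 per library, and Rn45s, a ribosomal precursor, took 7.32% to 10.7% of them.

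All 24594 rows, 7 of them with an identifier but no symbol, entered a fit by edgeR 4.0.16 in R 4.3.3 with TMM, filterByExpr by group and no covariate, and 13314 genes were tested with Benjamini-Hochberg adjustment. Genes were called at an adjusted p under 0.05. The standard error is the log2 difference divided by the square root of F, an approximation. With 0 adult counts a fold is a lower bound against 3 counts over the group, and with 1 to 3 counts a ratio with an exact 95% interval. Coordinates are from RefSeq on GRCm38.p6, exon lengths from GENCODE vM21. The fit was tested on simulated counts. Alternatives were RLE or library size scaling, DESeq2 1.42.0, no filter, a test against 2-fold, other library sizes, a replicate block and each library left out. The members, the other lists and the named genes were chosen with earlier results of these data known: all members are accounted for, with values by library for those called, not overlapping and at 10 CPM or more, and for cluster ligands, inhibitors and noncoding RNAs. From the other lists up to 6 genes with the smallest p are named, with Igf1r, Insr, Igf2bp1 and Zfp57, and flanking genes were taken within 250 kb.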

Additional observations from a re-analysis of the deposited data

How the results depend on the processing

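Over 468 results of single members under the alternatives, 450 kept their side of the threshold, 18 kept the direction but lost the call, and 0 called differences reversed. The uncalled difference of Zrsr1 ran from -0.01 to 0.32 as libraries were left out. The lost calls were H13, Inpp5f and, against a fold change of 2 alone, Kcnq1ot1, Copg2, Ppp1r9a, Ube3a, Airn, Gnas, Impact and Tssc4, because that test asks for a larger difference. Against 2-fold, members numbered 20 higher and 0 lower, other imprinted genes 7 higher and 4 lower, genes that maintain imprints 2 higher and 0 lower, the IGF pathway 11 higher and 1 lower, and all genes 1578 higher and 702 lower. With each library left out in turn, members numbered 26 to 28 higher and 2 to 4 lower, the 2 without adult replicate 3. DESeq2 called 29 higher and 3 lower, and no filter 30 and 4. The median log2 difference of all genes was 0.14 by DESeq2 and 0.13 with no filter, against 0.01. Values with few adult counts, and Insr, depend on single libraries as given above. No pairing of libraries by their replicate numbers was seen: deviations of same-numbered libraries correlated at -0.071, -0.037 and -0.097. These values cannot show that same-numbered libraries were handled apart. With the replicate number as a block, members numbered 26 higher and 4 lower. All alternatives named above were run. Replicates were not copies of each other: the chi-square over its degrees of freedom was 5.08 or more in each pair. Depth limits the adult values: 1 adult count is 0.170 to 0.177 CPM.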
